A study of Mus musculus with 6 samples.

Results

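The Hoxb cluster is a run of homeobox genes on mouse chromosome 11 that encode transcription factors. The arrays were searched for 10 of them, Hoxb1 to Hoxb9 and Hoxb13, by the gene symbol that the platform annotation gives to a probe set. Of 43057 probe sets, 11 carried a single Hoxb symbol, and they covered 9 of the 10 genes, out of 17720 genes with a probe set of their own. Hoxb3 and Hoxb4 each had 2 probe sets, Hoxb1, Hoxb2, Hoxb5, Hoxb6, Hoxb7, Hoxb9 and Hoxb13 had 1 each, and Hoxb8 had none of its own. A further probe set, 1452493_s_at, is annotated to both Hoxb8 and Hoxb7. It is described here as the shared probe set and is kept out of the counts, because its signal cannot be assigned to either gene.

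RNA of mouse fat cells was measured on 6 arrays, in 3 groups of 2. Marrow-derived adipocytes were sorted by flow cytometry out of the floating fat cells of the gonadal depot, in mice transplanted with marked bone marrow. The donors' cells expressed GFP, a fluorescent protein, for the first array and LacZ, beta-galactosidase, for the second. Gonadal white adipocytes came from the same depot, and brown adipocytes came from intrascapular fat. About 5000 cells went into a sort and the RNA of at least 6 sorts was pooled per sample, so each array averages over sorts. The labels give no strain, age or sex and do not say whether the white and brown adipocytes came from transplanted mice. They call the samples biological replicates without naming separate animals, so a p-value here measures the spread between these samples, which may be technical in part. General adipocyte markers were high throughout: Adipoq, the adiponectin gene, lay between 11.86 and 13.24 on the log2 scale on all 6 arrays. Ucp1, the heat-producing uncoupler of brown adipocytes, read 13.58 and 13.53 on the brown arrays against 4.84 to 7.68 on the other 4.

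Hox genes are laid out in the order in which they are used along the body axis. Those with low numbers act toward the head and are switched on early, those with high numbers act toward the tail, and adult cells keep much of this positional pattern. Different fat depots therefore carry different Hox profiles, and several Hoxb genes are also known from blood stem cells and from blood vessel endothelium. The deposited values are log2 expression values, on which a difference of 1 is a doubling. They carry no detection call. A probe set was called low where it lay under the 25th percentile of the array on every array, a level of 3.41 to 3.55. Hoxb1 and Hoxb7 were low in this sense, and the other 9 probe sets were not. Probe sets bind with different strength, so levels are compared between groups and never between genes.

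Most Hoxb probe sets had their highest mean in marrow-derived adipocytes, an intermediate one in brown and the lowest in gonadal white adipocytes. The group means ran in that order for 7 of the 11 probe sets, against 21.5% of all probe sets. For 4 of the 11 the arrays of the 3 groups did not overlap either, against 8.25% of all. Those 4 were the 2 probe sets of Hoxb3 and those of Hoxb6 and Hoxb9. The shared probe set had the same order without overlap.

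**Figure D1:**
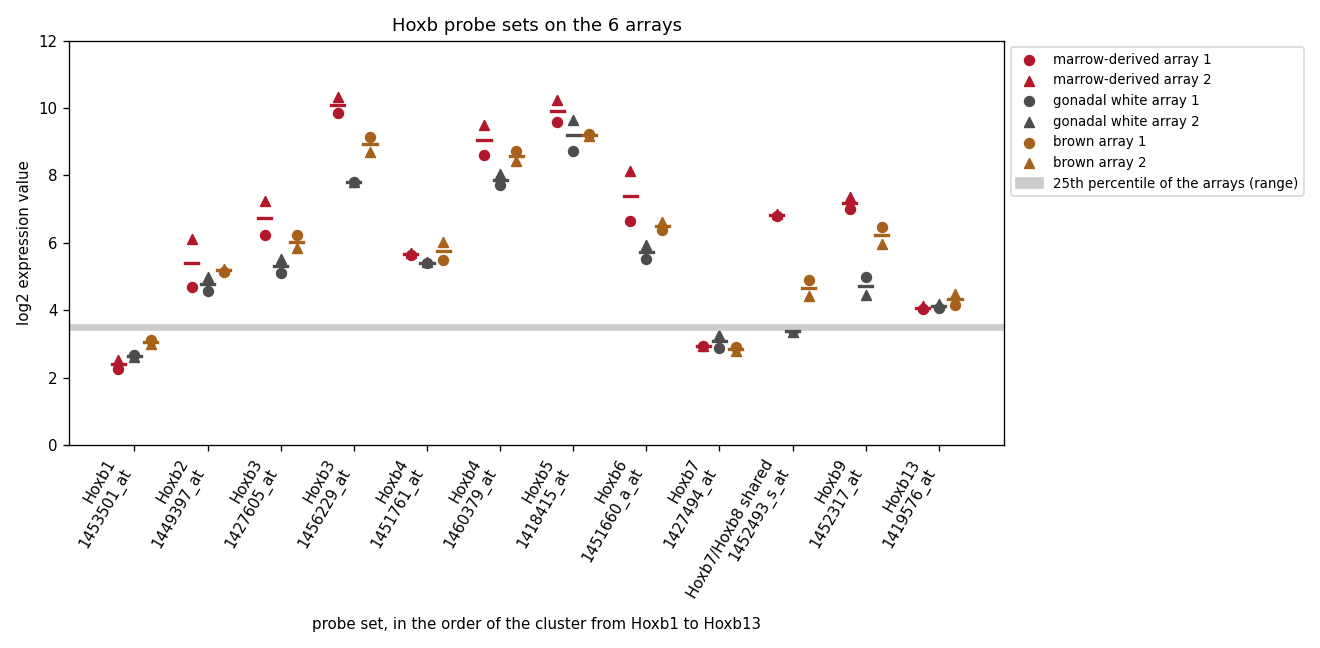
Log2 expression value of each Hoxb probe set on each array, with probe sets in cluster order on the horizontal axis, circles for array 1, triangles for array 2 and a short line at the mean of 2 arrays. In the marrow-derived group array 1 is GFP and array 2 is LacZ. The grey band spans the 25th percentile of the 6 arrays (3.41 to 3.55); Hoxb1 and Hoxb7 lie under it, and Hoxb3, the shared probe set and Hoxb9 separate the 3 groups.

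The comparison of marrow-derived with gonadal white adipocytes asks how donor-marked fat cells differ from conventional fat cells of the same depot. Hoxb9 and both probe sets of Hoxb3 were called higher in the marrow-derived arrays, by 2.71-fold to 5.55-fold, and no Hoxb probe set was called lower. That is 3 of 11 called higher by limma (Benjamini-Hochberg adjusted p under 0.05), where 11.5% of all probe sets were called higher, and 0 of 11 called lower, where 10.8% were. An unadjusted limma p under 0.05 was reached by 5 of the 11, and by 15227 of all 43057 probe sets. The median difference over the 11 was 0.72 on the log2 scale, against -0.04 over all probe sets. Both marrow-derived arrays lay above both white arrays for 6 of 11 (28.8% of all probe sets), and below them for 1 of 11, Hoxb1 (32.9%). The call of 1427605_at, the second Hoxb3 probe set, held under only 2 of 12 other settings, which varied the scaling, the filter, the fit or left out 1 array. Leaving out an array of the group not compared gave the same result as fitting only the 2 compared groups. The settings counted here and below are therefore not all separate checks.

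At the tail end of the cluster, Hoxb9 was the single-symbol member with the largest difference. It acts in the patterning of the thorax and limb position. Its log2 values were 7.01 (GFP) and 7.37 (LacZ) in marrow-derived, 4.99 and 4.45 in white and 6.48 and 5.97 in brown arrays. The 3 groups did not overlap, with marrow-derived highest and white lowest. The difference from white was 2.47 ± 0.29 (limma's SE, n = 2 arrays per group), or 5.55-fold, with a limma adjusted p = 0.00583. It held under all 13 other settings, with adjusted p from 0.00484 to 0.0349.

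The shared probe set of Hoxb8 and Hoxb7 moved more than any single-symbol member. Hoxb8 is known for holding myeloid progenitors in an immature state when it is overexpressed. The values were 6.79 and 6.87 in marrow-derived, 3.42 and 3.36 in white and 4.89 and 4.43 in brown arrays. Both white arrays lay under the 25th percentile of their array, and the marrow-derived arrays differed from each other by only -0.07 (GFP minus LacZ). The difference from white was 3.44 ± 0.21 (10.8-fold, limma adjusted p = 0.00293) and was called under all 12 other settings in which the probe set was tested. Hoxb7's own probe set, 1427494_at, did not share this pattern. It stood at 2.95 and 2.94 in marrow-derived, 2.90 and 3.27 in white and 2.91 and 2.80 in brown arrays, low on all of them. Whether the shared signal came from Hoxb8, or from Hoxb7 transcripts that the second probe set does not bind, was not tested.

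Promoter sequence was at hand for 3 of the 10 members, from RefSeq on build GRCm38.p6, and these stand for the head end (Hoxb1), the middle (Hoxb4) and the tail side (Hoxb8) of the cluster. Each line shows the 250 bases before the transcription start, 5′ to 3′ on the plus strand, from chr11:96365508-96365757 for Hoxb1, chr11:96318017-96318266 for Hoxb4 and chr11:96281655-96281904 for Hoxb8. Capitals mark TGATNNAT on either strand, the joint recognition letters of a Hox protein and its Pbx partner.
Hoxb1: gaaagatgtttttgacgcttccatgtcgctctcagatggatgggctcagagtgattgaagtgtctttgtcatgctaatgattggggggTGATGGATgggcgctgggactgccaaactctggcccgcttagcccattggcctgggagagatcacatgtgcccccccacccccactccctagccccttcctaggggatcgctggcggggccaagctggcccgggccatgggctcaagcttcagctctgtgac
Hoxb4: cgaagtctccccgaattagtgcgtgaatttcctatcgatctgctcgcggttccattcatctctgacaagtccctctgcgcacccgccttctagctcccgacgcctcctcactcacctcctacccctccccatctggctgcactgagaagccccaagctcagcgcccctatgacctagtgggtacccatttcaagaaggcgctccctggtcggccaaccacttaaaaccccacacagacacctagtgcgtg
Hoxb8: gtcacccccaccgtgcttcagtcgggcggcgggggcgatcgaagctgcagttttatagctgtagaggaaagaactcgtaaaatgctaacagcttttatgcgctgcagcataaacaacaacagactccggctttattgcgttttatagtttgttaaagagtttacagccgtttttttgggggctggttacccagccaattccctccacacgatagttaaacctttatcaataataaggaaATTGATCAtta
Hoxb1 held 1 match on the plus strand, whose first base is at position -162 from the start, and Hoxb8 held 1 on the minus strand, at position -11. Hoxb4 held 0. Of 32851 such windows in the same table, 7.68% held at least 1 match. The windows of Hoxb1, Hoxb4 and Hoxb8 held 7, 14 and 12 CG dinucleotides, against a median of 6 over all windows.

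In the middle of the cluster Hoxb6, Hoxb5 and Hoxb4 had higher means on the marrow-derived than on the white arrays, but none passed the test. Hoxb6, a regulator of trunk patterning, had values of 6.65 (GFP) and 8.12 (LacZ) in marrow-derived, 5.53 and 5.95 in white and 6.39 and 6.61 in brown arrays. The groups did not overlap, but the marrow-derived pair lay 1.47 apart. It differed from white by 1.65 ± 0.49 (limma adjusted p = 0.0644). Without the GFP array it was 2.38 and called (adjusted p = 0.00598), and over all 13 settings adjusted p ran from 0.00598 to 0.224.

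Hoxb5, which marks long-term blood stem cells in mouse marrow, stood at 9.57 and 10.25 in marrow-derived, 8.73 and 9.65 in white and 9.24 and 9.18 in brown arrays. Its white arrays spanned both brown arrays and the GFP array. The 0.72 ± 0.38 between marrow-derived and white (limma adjusted p = 0.244) did not exceed the spread between arrays.

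The Hoxb4 probe sets did not move alike. Hoxb4 is best known for expanding blood stem cells. Its probe set 1460379_at read 8.62 and 9.50 in marrow-derived, 7.73 and 8.03 in white and 8.73 and 8.43 in brown arrays. The marrow-derived arrays lay above both white arrays, by 1.18 ± 0.33 (limma adjusted p = 0.0574), and overlapped with brown. Without the GFP array the difference was 1.62 (adjusted p = 0.0138), and over the 13 settings adjusted p ran from 0.0138 to 0.208. The other Hoxb4 probe set, 1451761_at, read 5.65 and 5.70, 5.39 and 5.44, and 5.50 and 6.02 in marrow-derived, white and brown arrays. It differed between marrow-derived and white by 0.26 ± 0.22 (limma adjusted p = 0.482). Both probe sets cite the same database accession, so they stem from 1 transcript record.

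Toward the head end, Hoxb3 passed the test and its neighbours did not. Hoxb3 patterns the hindbrain and pharyngeal region, and in the RefSeq annotation its transcribed span encloses Hoxb4. The probe set 1456229_at read 9.85 (GFP) and 10.32 (LacZ) in marrow-derived, 7.80 and 7.82 in white and 9.14 and 8.71 in brown arrays. The 2 white arrays nearly coincided, and the 3 groups did not overlap. The difference from white was 2.28 ± 0.25, or 4.85-fold (limma adjusted p = 0.00498), and it was called under all 13 other settings (adjusted p from 0.00251 to 0.0331).

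The second Hoxb3 probe set, 1427605_at, read 6.23 and 7.25 in marrow-derived, 5.10 and 5.51 in white and 6.23 and 5.84 in brown arrays. The order was the same, with the GFP array only just above the higher brown array. Marrow-derived minus white gave 1.44 ± 0.38 (2.71-fold, limma adjusted p = 0.0479). Among the 12 other settings adjusted p ran from 0.0122 to 0.184, and without the LacZ array the difference was 0.93 (adjusted p = 0.0877).

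Hoxb2, a hindbrain gene like Hoxb3, read 4.68 (GFP) and 6.10 (LacZ) in marrow-derived, 4.56 and 4.99 in white and 5.15 and 5.23 in brown arrays. Its LacZ value was above all other arrays and its GFP value within the white range. Against white the value was 0.62 ± 0.47 (limma adjusted p = 0.421). It was 1.33 and called without the GFP array (adjusted p = 0.0241) and -0.09 without the LacZ array, and adjusted p ran up to 0.840.

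The genes at the 2 ends of the cluster differed little from white. Hoxb1, which is used in the hindbrain and largely turned off later, read 2.27 and 2.54, 2.67 and 2.62, and 3.13 and 2.99 in marrow-derived, white and brown arrays. All are low, and the difference from white was -0.24 ± 0.18 (limma adjusted p = 0.422). Hoxb13, a gene of the prostate and the tail end of the body, read 4.02 and 4.12, 4.07 and 4.19, and 4.17 and 4.49. It lay between percentiles 33.2 and 39.4 of the arrays, just above the low level, and differed from white by -0.06 ± 0.19 (limma adjusted p = 0.870). For Hoxb7 the difference was -0.14 ± 0.20 (limma adjusted p = 0.679).

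**Figure D2:**
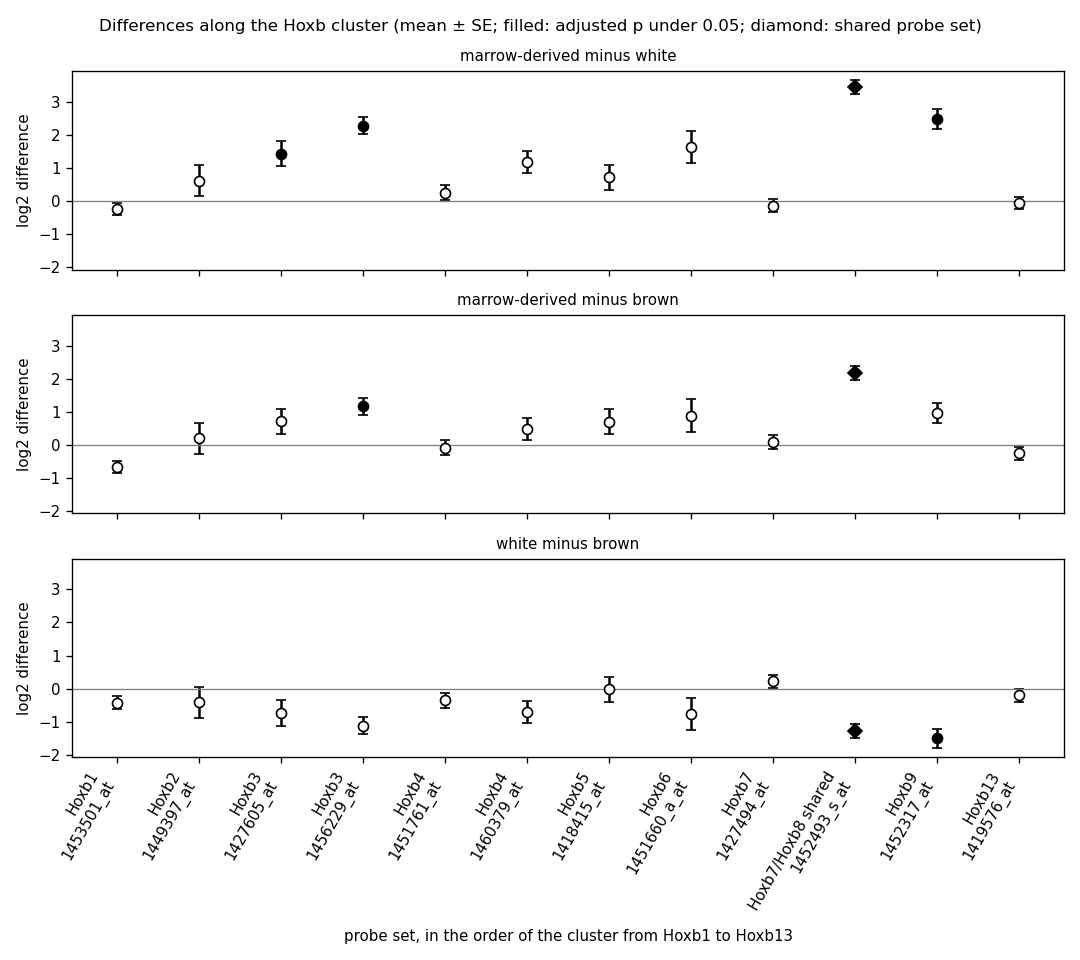
Log2 difference (mean ± limma's SE, 2 arrays per group) of each Hoxb probe set in the 3 comparisons, with probe sets in cluster order. Filled symbols have a limma adjusted p under 0.05 and the diamond is the shared probe set; against white, the called differences run from 1.44 (Hoxb3 1427605_at) to 3.44 (the shared probe set), and Hoxb1, Hoxb7 and Hoxb13 lie near 0.

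Position along the cluster did not order the differences. Called single-symbol members stood near both ends, at Hoxb3 and Hoxb9, with Hoxb4, Hoxb5, Hoxb6 and Hoxb7 between them. The shared probe set of Hoxb8 and Hoxb7 also lies between them. It was called in every comparison (3.44 for marrow-derived minus white) and is left out of the correlations that follow. Spearman's rho between the place of the gene, counted from Hoxb13, and its difference was -0.12 for marrow-derived minus white, -0.09 for marrow-derived minus brown and -0.17 for white minus brown. These describe 11 probe sets that share the same arrays. Leaving out Hoxb1 and Hoxb7, the low ones, rho was 0.03, 0.09 and -0.08.

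Against brown adipocytes, 1 of the 2 Hoxb3 probe sets was the only single-symbol member called higher in marrow-derived arrays. That count is near the share of all probe sets. This comparison sets the marrow-derived cells against a conventional fat cell of another depot. Of the 11 probe sets 1 was called higher (7.49% of all probe sets) and 0 lower (9.46% of all). An unadjusted limma p under 0.05 was reached by 3 of the 11, and by 14128 of all 43057 probe sets. Hoxb3 1456229_at differed by 1.16 ± 0.25 (2.24-fold, limma adjusted p = 0.0329). That call held under 5 of 13 other settings, with adjusted p from 0.0265 to 0.182. It was lost without the LacZ array (0.93) and without brown array 1 (1.38) or 2 (0.94). Leaving out either white array also lost the call (1.16, unchanged in size), and equals the fit of only the 2 compared groups.

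The shared probe set differed from brown by 2.17 ± 0.21, or 4.50-fold (limma adjusted p = 0.00463). It was called under 11 of 12 settings, with adjusted p from 0.00448 to 0.0508; the exception was leaving out brown array 2 (1.94). Hoxb9 differed by 0.97 ± 0.29 (limma adjusted p = 0.0790), Hoxb6 by 0.89 ± 0.49, Hoxb5 by 0.70 ± 0.38 and Hoxb3 1427605_at by 0.71 ± 0.38. None of these 4 passed, although all their marrow-derived arrays lay above both brown arrays. Without the GFP array Hoxb6 was called (1.62, adjusted p = 0.0211). Hoxb4 1460379_at (0.48), Hoxb2 (0.20), Hoxb7 (0.09), Hoxb4 1451761_at (-0.09) and Hoxb13 (-0.25) did not pass either. Nor did Hoxb1, low on every array, at -0.66 ± 0.18 (limma adjusted p = 0.0649). Over the 11 the median was 0.48, against 0.02 over all probe sets. The marrow-derived arrays lay wholly above brown for 6 of 11 (31.2% of all) and wholly below for 2 of 11, Hoxb1 and Hoxb13 (30.7%).

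Gonadal white adipocytes had lower Hoxb values than brown adipocytes in 10 of 11 probe sets, though few passed the test. White was higher in 1 of the 11, against 49.0% of all probe sets. The comparison gives the difference between conventional fat cells of 2 body regions. Of the 11, 1 was called lower (4.58% of all) and 0 higher (2.79% of all). An unadjusted limma p under 0.05 was reached by 2 of the 11, and by 10236 of all 43057 probe sets. White arrays lay wholly below brown for 8 of 11 (30.9% of all) and wholly above for 0 of 11 (28.9%). Hoxb9 differed by -1.50 ± 0.29 (2.83-fold lower in white, limma adjusted p = 0.0419). The call held under 8 of 13 settings, with adjusted p from 0.0340 to 0.251. It was lost without white array 1 (-1.77) or 2 (-1.23), and without brown array 1 (-1.25) or 2 (-1.76).

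Hoxb3 1456229_at came next at -1.12 ± 0.25 (limma adjusted p = 0.0584), then Hoxb6 (-0.76), Hoxb3 1427605_at (-0.73) and Hoxb4 1460379_at (-0.70). Without either marrow-derived array the Hoxb3 difference was called (adjusted p = 0.0349, in a range up to 0.301). The shared probe set differed by -1.27 ± 0.21 (limma adjusted p = 0.0289) and was called under 8 of 12 settings. It too was lost without white array 1 (-1.30) or 2 (-1.23), or brown array 1 (-1.03) or 2 (-1.50). Over all 12 settings, those that kept the call included, adjusted p ran from 0.0267 to 0.176. Hoxb5 differed by -0.02 ± 0.38 and Hoxb7 by 0.23 ± 0.20. The median over the 11 was -0.42, against -0.01 over all probe sets. The 3 comparisons share arrays, so their values for a gene are not independent of each other.

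The marrow-derived pair differed within itself more than the other pairs. The LacZ array was above the GFP array for 10 of 11 Hoxb probe sets, against 57.6% of all probe sets. Hoxb7 was the exception. The root mean square difference over the 11 was 0.79 within the marrow-derived pair, 0.42 within the white and 0.33 within the brown pair, where all probe sets gave 0.74, 0.54 and 0.39. The widest gaps were in Hoxb6 (-1.47, GFP minus LacZ), Hoxb2 (-1.42) and Hoxb3 1427605_at (-1.01). Without the GFP array 6 of 11 probe sets were called higher than white, in place of 3, while 22.3% of all probe sets were called in either direction, beside 22.2% with it.

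The endothelial and blood progenitor marker lists had means in the order marrow-derived, brown, white, and the other marker lists did not. The labels call all samples adipocytes. Yet 8 of 8 endothelial markers were called higher in marrow-derived than in white arrays (11.5% of all probe sets), with a median difference of 3.80. The mean over that list was 11.48 (GFP) and 12.08 (LacZ) in marrow-derived, 8.48 and 7.40 in white and 10.97 and 10.45 in brown arrays. This is the same order of groups as for Hoxb3 and Hoxb9, and none of the 8 was low on every array. Pecam1, an endothelial adhesion molecule, stood at 10.98 and 11.91, 7.80 and 6.66, and 10.55 and 10.02.

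Of 7 measured markers of blood progenitors 5 were called higher than in white, with list means of 8.66 and 9.09, 7.19 and 6.24, and 8.16 and 8.05 in marrow-derived, white and brown arrays. Several of them, such as Kit, Cd34 and Tal1, are also used by endothelial cells. Of 7 fibroblast and fat progenitor markers 2 were higher than in white and 5 higher than in brown, with means of 10.70 and 10.34, 9.79 and 8.85, and 7.99 and 7.39. Among 6 markers of smooth muscle and pericytes, 3 were called higher than in white and 3 higher than in brown, with means of 9.31 and 9.97, 8.09 and 8.24, and 8.04 and 7.89. Of 8 macrophage markers limma called 0 in each of the 3 comparisons (0, 0 and 2 with an unadjusted p under 0.05, for marrow-derived against white, against brown and white against brown), with means of 11.21 and 8.77, 11.32 and 9.85, and 8.95 and 8.28. Of 5 mesothelial markers, genes of the lining of the body cavity, 3 were higher than in brown and 0 called against white, with means of 8.15 and 6.08, 7.24 and 7.32, and 3.80 and 4.09. Of 5 general adipocyte markers 2 were lower than in white, with means of 12.12 and 11.60 against 12.74 and 12.89. Of all probe sets 11.5% were called higher and 10.8% lower than in white, and 7.49% higher than in brown. The part of the cell types of these lists in the Hoxb differences was not tested. In such pooled samples fewer cells of a type and less RNA per cell cannot be told apart.

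**Figure D3:**
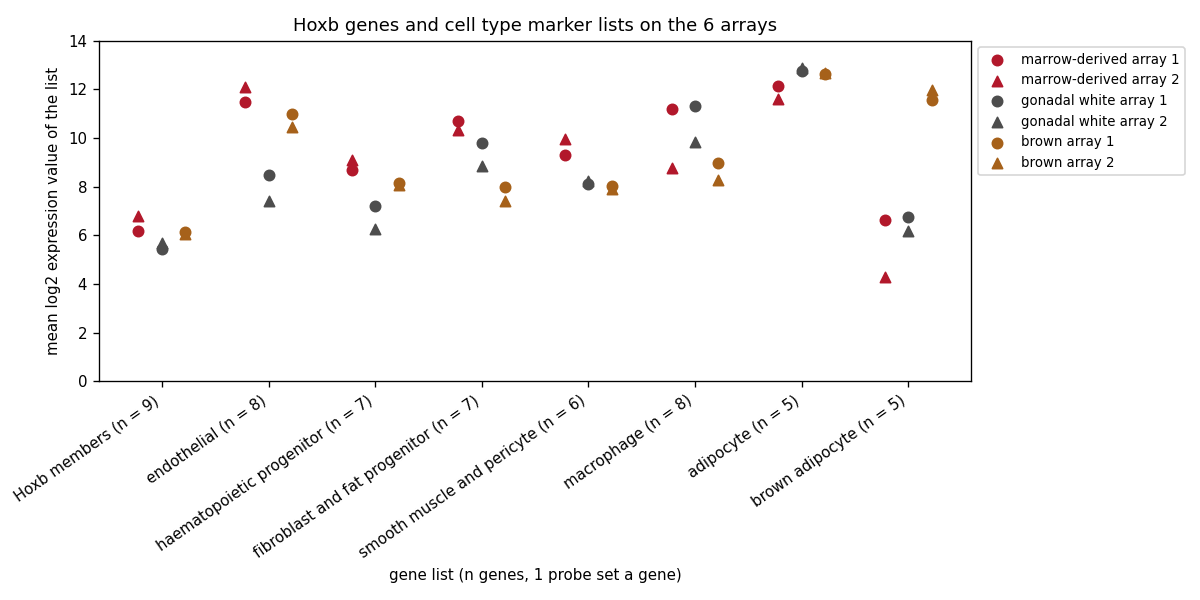
Mean log2 expression value of the 9 measured Hoxb genes and of 7 marker lists on each array (1 probe set a gene; circles array 1, triangles array 2). The endothelial list runs from 11.48 to 12.08 in marrow-derived, 10.45 to 10.97 in brown and 7.40 to 8.48 in white arrays, and the Hoxb mean from 6.18 to 6.81, 6.05 to 6.15 and 5.44 to 5.66.

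The other Hox clusters were measured on the same arrays. Against white, 7 of 16 Hoxa probe sets were called higher and 0 lower, 1 of 11 Hoxc higher and 7 lower, and 5 of 10 Hoxd higher and 0 lower. Of all probe sets 11.5% were called higher and 10.8% lower. The medians were 1.28 for Hoxa, -2.06 for Hoxc and 0.61 for Hoxd, beside 0.72 for Hoxb. Paralogue group 9, whose members share ancestry with Hoxb9, held values in both directions. Beside the 2.47 of Hoxb9, Hoxd9 was higher than white by 2.47 ± 0.19 and Hoxa9 by 5.78 ± 0.25 on 1 probe set but by 1.24 ± 0.22 on the other. The Hoxc9 value was -1.08 ± 0.46 and did not pass (limma adjusted p = 0.160). Against brown the medians were -0.02, -0.78 and 0.63 for Hoxa, Hoxc and Hoxd, beside 0.48 for Hoxb. No test of a difference between clusters was made.

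**Figure D4:**
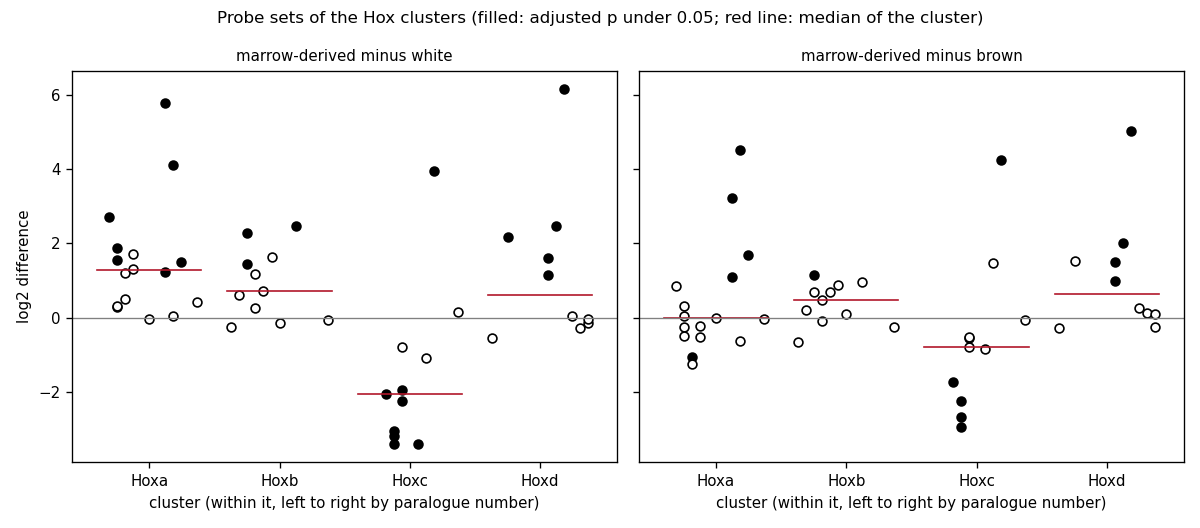
Log2 difference of each single-symbol probe set of the 4 Hox clusters, marrow-derived minus white on the left and minus brown on the right, placed within a cluster by paralogue number. Filled points have a limma adjusted p under 0.05 and red lines are medians; against white the Hoxb median is 0.72 and the Hoxc median -2.06.

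Transcripts of genes whose products act with or on Hox genes were counted in the same way. Of all probe sets 11.5% were called higher and 10.8% lower than in white. Against brown these shares were 7.49% and 9.46%, and for white against brown 2.79% and 4.58%. The lists hold 1 probe set per gene, the one with the highest mean. A fit of such probe sets alone called 25.8% against white and 20.4% against brown, in either direction. No test of a list against these shares was made. Of 8 measured Pbx, Meis and Pknox genes, whose products bind DNA together with Hox proteins, 2 were called higher and 1 lower than in white. Pbx3 was higher by 1.64 ± 0.32 (limma adjusted p = 0.0205) and Pbx2 by 1.06 ± 0.21, while Meis3 was lower (-1.17 ± 0.22). Against brown limma called 0 of the 8 (4 at an unadjusted p under 0.05), with the largest value in Pknox2 (1.63 ± 0.46, limma adjusted p = 0.0654). Between white and brown 1 was called, Meis3, higher in white (1.37 ± 0.22).

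Trithorax proteins keep Hox genes active. Of 10 regulators of that list 2 were called higher in marrow-derived than in white cells (11.5% of all probe sets). The same 2 were called higher than in brown (7.49%). Kmt2a, the methyltransferase that maintains Hox expression in blood cells, differed from white by 1.55 ± 0.21 (limma adjusted p = 0.00804) and from brown by 1.20 ± 0.21. Kdm6a, which removes the silencing mark of Polycomb, differed by 1.54 ± 0.18 and 1.44 ± 0.18. Polycomb proteins silence Hox genes. Of a list of 20 genes, made up of Polycomb genes and Ctcf, 6 were higher and 1 lower than in white. Of all probe sets 11.5% and 10.8% were. Phf1 (1.44 ± 0.17) and Phc2 (1.31 ± 0.25) were higher and Cbx8 lower (-1.30 ± 0.21). Against brown 2 of the 20 were higher, Cbx6 (1.03 ± 0.24) and Jarid2 (0.85 ± 0.17), and 1 was lower, again Cbx8 (-1.07 ± 0.21). Between white and brown 1 was called, Phf1, lower in white (-0.92 ± 0.17). The medians of these lists against white were 0.50 and 0.56, beside -0.04 over all probe sets. These are unlike sets. The lists hold the probe set with the highest mean of each gene, none of them low on every array. All 43057 probe sets include 7133 that were low on every array.

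Retinoic acid switches on Hoxb genes in embryos, and a list of its pathway genes together with Cdx2 and Egr2 was mixed. Of 17 measured genes 2 were higher and 3 lower than in white (11.5% and 10.8% of all probe sets). Cyp26b1, which breaks down retinoic acid, read 9.52 and 10.87 in marrow-derived, 5.72 and 4.69 in white and 9.17 and 7.90 in brown arrays. It was higher than white by 4.99 ± 0.65 (limma adjusted p = 0.00708), while the nuclear receptor Rxrg (-3.48 ± 0.30) and the retinoic acid-forming enzyme Aldh1a1 (-2.94 ± 0.28) were lower. Against brown 1 of the 17 was higher, Egr2, a hindbrain activator of Hoxb2 (0.97 ± 0.25), and 2 were lower, Rxrg (-4.00 ± 0.30) and Rxrb (-1.14 ± 0.26). Between white and brown, Cyp26b1 was lower in white (-3.33 ± 0.65) and Aldh1a1 higher (2.26 ± 0.28).

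Against white, the counts of called genes around the cluster were near the shares of all probe sets. Of 11 measured neighbours and antisense transcripts 0 were higher than in white (11.5% of all probe sets) and 1 was lower (10.8%). The lower one was Cdk5rap3 (-1.17 ± 0.24, limma adjusted p = 0.0227). An unadjusted limma p under 0.05 was reached by 3, and the list's median was 0.08. Atp5g1, a mitochondrial ATP synthase gene, was the member called in the other comparisons, higher than brown in marrow-derived (1.30 ± 0.19) and in white cells (1.16 ± 0.19). Of all probe sets 7.49% and 2.79% were called higher in these 2 comparisons. Skap1, on the Hoxb1 side, differed by 0.11 ± 0.23 and Ttll6, on the Hoxb13 side, by 0.14 ± 0.22. Hoxb5os, an antisense RNA that overlaps Hoxb5 and Hoxb6, read 5.18 and 5.65, 5.60 and 5.85, and 5.34 and 5.58 in marrow-derived, white and brown arrays, a difference from white of -0.31 ± 0.24 (limma adjusted p = 0.419). Skap1, Ttll6 and Hoxb5os were chosen for their place beside the cluster after their values were seen.

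Hoxb3 1456229_at had the largest F statistic over the 3 groups among the members. Outside the Hox clusters, the genes whose profile over the 6 arrays lay nearest to it, after each was centred on its own mean, were Rasgrp2, Btbd3 and Ddx58, at root mean square distances of 0.07, 0.09 and 0.10 on the log2 scale. Rasgrp2, for instance, read 9.98 and 10.37, 7.86 and 7.85, and 9.34 and 8.89 in marrow-derived, white and brown arrays. With 43057 probe sets to choose from, near matches over 6 arrays are a description of the pattern.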

How the data were processed

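Expression was measured on 6 arrays, 2 per group. The authors' deposited values are log2 values, with a column for each array and a row for each probe set; the submitters' processing notes name RMA and Partek, with no version or role, and the log base was taken from the values. Such values lack detection calls, and differences that reach the low end understate the true fold. Gene symbols came from the platform annotation: 33565 probe sets had 1 symbol, 857 several and 8635 none. Group means of all arrays were fitted over all 43057 probe sets with limma 3.58.1 in R 4.3.3 (lmFit, contrasts and eBayes; 3 residual degrees of freedom, 2.65 from the prior). Each two-sided p was adjusted by Benjamini-Hochberg across the probe sets of its comparison and called under 0.05. Precision is limited by the number of arrays. The fit was tested on simulated data. For other gene lists the probe set with the highest mean stood for a gene. Named genes were every Hoxb probe set and up to 3 called genes per list by size. Members and lists were chosen with earlier results of these data known. Alternatives covered scaling, filtering, collapsing to genes, the arrays in the fit, the variance prior, a replicate block and leaving out each array.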

Additional observations from a re-analysis of the deposited data

How the results depend on the processing

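The differences of Hoxb9, Hoxb3 1456229_at and the shared probe set from white kept their direction and call under every alternative run. Other calls were less stable. Counts of called Hoxb probe sets changed as follows. Against white, the count higher was 2 in place of 3 with each array centred on its median, with quantile normalization again and with only the compared groups fitted, each time without Hoxb3 1427605_at, and with 1 probe set per gene, where that probe set was not in the fit. It was 3 with the mean-variance trend and with the replicate block, but with Hoxb4 1460379_at and Hoxb6, respectively, in place of that Hoxb3 probe set. Against brown, the count higher was 0 in place of 1 with each array centred on its median, with only the compared groups fitted, and with the replicate block. The count lower was 1 in place of 0 after median centring and with a mean-variance trend (Hoxb1 both times). For white against brown, the count lower was 2 in place of 1 with only the 2 groups fitted and with the trend, and 0 with the replicate block. Leaving out 1 array at a time, which assumes that a lone array varies like the other groups, the counts ran from 2 to 6 higher against white, 0 to 2 higher against brown and 0 to 2 lower for white against brown.

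Hoxb7 minus brown changed sign after median centring (-0.11). With 1 array left out, the sign changed against white for Hoxb13 (-0.12 to 0.00247) and Hoxb7 (-0.33 to 0.0481), against brown for Hoxb4 1451761_at (-0.35 to 0.17), and between white and brown for Hoxb5 (-0.48 to 0.44). The sign for Hoxb2 depended on which marrow-derived array was kept: it ran from -0.0935 without LacZ to 1.33 without GFP against white, and from -0.51 to 0.91 against brown. Median centring moved the median of all probe sets by -0.17 against white and -0.19 against brown. The share of calls that were higher went from 51.6% to 41.0% and from 44.2% to 29.4%. The share of all probe sets called against white was 22.2%, and 13.4% with only the 2 groups fitted or 7.70% without white array 2. Against brown it was 17.0%, and 1.21% without brown array 2. Between white and brown it was 7.37%, 11.6% with only the 2 groups fitted and 0 without either brown array. Deviations of same-numbered arrays from their group means correlated weakly over all probe sets. The r was 0.15 for marrow-derived with white, 0.02 for marrow-derived with brown and 0.21 for white with brown. With 2 arrays per group these values cannot decide whether the replicate numbers pair the samples, and the labels do not say. Under the replicate block Hoxb6 was called against white (adjusted p = 0.0398 by limma), while Hoxb3 1427605_at (0.0596) was not. The cause of these shifts was not tested.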
